A study of Canis lupus familiaris with 26 samples.

Results

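IDO1 (ENSCAFG00000005750), TAGAP (ENSCAFG00000000665) and RGS1 (ENSCAFG00000010603) are 3 immune genes of 19856 genes counted by RNA-Seq in canine corpora lutea (CL), the transient glands of the ovary that secrete progesterone. They were selected on the difference between dogs given the COX2 inhibitor firocoxib and control dogs on day 30 after ovulation, so their values on that day are described here without a test. Days 5, 10 and 20 were not used in the selection, and the tests below were made on those days. The 8 groups came from mixed-breed bitches of different ages, with 4 control and 4 treated dogs on day 5 and 3 of each on days 10, 20 and 30. Treated dogs received 10 mg/kg of firocoxib (Previcox) by mouth every day from ovulation until the ovaries were removed. Control dogs were given a placebo according to the treatment protocol, while the design text calls them untreated. Each sample is the CL tissue of an individual dog, so the RNA came from luteal, endothelial, connective tissue and immune cells together. In such bulk samples fewer cells of a type and less RNA per cell cannot be told apart.

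The 3 genes belong to different parts of immune regulation. IDO1 encodes indoleamine 2,3-dioxygenase 1, which breaks down tryptophan in the kynurenine pathway, is induced by interferon gamma and restrains T cells. TAGAP encodes a GTPase-activating protein that is found in activated T cells and other leukocytes. RGS1 encodes a regulator of G protein signaling that shortens the response of leukocytes to chemokines. Immune cells are regular residents of the CL, where prostaglandin E2 made by COX2 acts on both luteal and immune cells.

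Counted reads per library numbered 12831896 to 22658950 (median 17909942). Levels are given as CPM, read counts scaled to a common library size with the TMM factors of edgeR over all 26 samples, and are compared within a gene only. Luteal identity rested on LHCGR, PRLR and INHA, the 3 of 8 listed markers of steroidogenic cells with an identifier. Their summed level was between 276 and 1220 CPM in every sample. None of the 30 pairs of samples within a group were copies of each other, since chi-square per degree of freedom was 40.1 or more for every pair.

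On day 30, IDO1 was lower in treated than in control CL, whereas TAGAP and RGS1 were higher. IDO1 had 12.6, 3.50 and 4.17 CPM in control replicates 2, 3 and 4 and 2.04, 0.141 and 0.927 CPM in treated replicates 2, 4 and 5. These levels rested on 236, 56 and 67 reads in the controls and on 35, 2 and 16 reads in the treated samples. All treated samples were below all controls, and the group mean was 6.54 times higher in controls. The difference of mean log2 CPM, with a prior count of 2, was -2.82, against a pooled SD of 1.31, so replicates of this gene varied widely. The difference was -1.96 without treated replicate 4, the sample with 2 reads, -2.25 without control replicate 2 and -3.51 without treated replicate 2.

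TAGAP on day 30 had 7.82, 6.82 and 9.96 CPM in the controls and 25.1, 28.5 and 27.4 CPM in the treated samples. Its treated mean of 27.0 ± 1.76 CPM (SD, n = 3) was 3.29 times the control mean of 8.20 ± 1.60 CPM (SD, n = 3), and the difference of 1.72 in log2 CPM compared with a pooled SD of 0.20. RGS1 had 5.79, 8.20 and 6.28 CPM in the controls and 22.1, 27.1 and 16.6 CPM in the treated samples. The treated mean of RGS1 was 3.24 times the control mean, a log2 difference of 1.67 with a pooled SD of 0.31. Groups of all 3 genes thus did not overlap on day 30, as their selection favoured. Among the 13196 genes that averaged 10 reads or more in a group, 5.77% had all treated samples above all controls and 9.11% had all of them below, and nothing is read from the 3 genes' place among these.

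**Figure D1:**
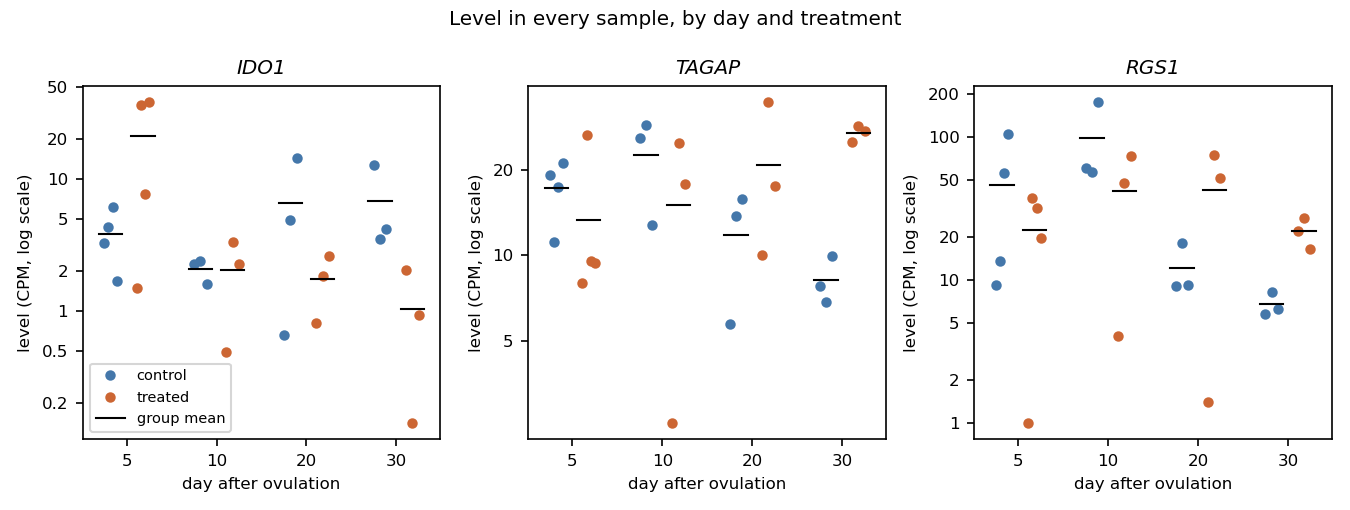
Level of IDO1, TAGAP and RGS1 in each of the 26 samples (CPM, log scale) against day after ovulation, with control samples in blue, treated samples in orange and a bar at each group mean. The day 30 groups do not overlap in any panel, whereas the groups of days 5, 10 and 20 overlap in every panel.

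On day 5, IDO1 had its highest group mean of all, in treated CL. Its levels were 3.27, 4.33, 6.11 and 1.67 CPM in control replicates 1, 3, 4 and 5 and 1.5, 36.5, 7.65 and 38.1 CPM in treated replicates 1, 2, 4 and 5. Of the 4 treated samples, 3 were above all controls and replicate 1 was below all of them. The log2 fold change was 2.41 (SE 0.82, FDR = 0.412 in the quasi-likelihood test of edgeR, adjusted after Benjamini and Hochberg), which did not pass the thresholds of 0.01 for P and 0.1 for FDR. No gene passed them on day 5, 0% of 13651, while 11.8% (1609 genes) had an unadjusted P under 0.05 and DESeq2 called 100 genes. DESeq2 gave IDO1 an FDR of 0.128, which also missed the threshold.

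TAGAP had 19.1, 11.2, 17.4 and 21.0 CPM in the day 5 controls and 7.98, 26.5, 9.57 and 9.41 CPM in the treated samples. All treated samples but replicate 2, which was above all controls, were below them, and the log2 fold change was -0.38 (SE 0.42, FDR = 0.601). RGS1 had 9.17, 13.5, 56.3 and 105 CPM in the day 5 controls and 0.998, 37.7, 31.9 and 19.7 CPM in the treated samples. Its log2 fold change was -1.05 (SE 0.93, FDR = 0.535), with controls themselves spread over more than a 10-fold range. Without control replicate 5, the highest sample, it was -0.23, and without treated replicate 1 it was -0.65.

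On day 10, none of the 3 genes differed between the groups beyond the spread of the replicates. IDO1 had 2.25, 2.37 and 1.59 CPM in control replicates 2, 3 and 4 and 0.489, 3.33 and 2.28 CPM in treated replicates 1, 4 and 5, with a log2 fold change of -0.01 (SE 0.70). TAGAP had 25.9, 28.7 and 12.8 CPM in the controls and 2.57, 24.8 and 17.8 CPM in the treated samples. RGS1 had 61.0, 56.6 and 176 CPM in the controls and 4.03, 47.5 and 73.7 CPM in the treated samples. Treated replicate 1 had the lowest level of its day in all 3 genes. The log2 fold changes were -0.57 (SE 0.70) for TAGAP and -1.22 (SE 0.85) for RGS1, and none of the 3 passed. No gene was called on day 10 with edgeR, 0% of 13416, and none with DESeq2, while 0.902% (121 genes) had an unadjusted P under 0.05.

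On day 20, the 3 genes pointed the way they did on day 30, without passing the test. IDO1 had 0.661, 4.87 and 14.3 CPM in control replicates 1, 2 and 3 and 0.807, 1.83 and 2.58 CPM in treated replicates 2, 3 and 4. The lowest sample was thus a control, and the log2 fold change of -1.89 (SE 0.98, FDR = 0.352) was -0.64 without control replicate 3. TAGAP had 5.71, 13.8 and 15.8 CPM in the controls and 10.0, 34.6 and 17.5 CPM in the treated samples, a log2 fold change of 0.86 (SE 0.59, FDR = 0.461) that was 0.26 without treated replicate 3 and 0.53 without control replicate 1. RGS1 had 9.07, 18.2 and 9.21 CPM in the controls and 1.40, 74.8 and 51.8 CPM in the treated samples. Treated replicates 3 and 4 were above all controls and replicate 2 was below them, and the log2 fold change was 1.87 (SE 1.06, FDR = 0.390). Without treated replicate 2 the log2 fold change of RGS1 was 2.41 with an FDR of 0.0164, which passed both thresholds, and without treated replicate 3 it was 1.19. On this day 0.102% of 13726 genes (14 genes) were called and 17% had an unadjusted P under 0.05. Without treated replicate 2 there were 1016 called genes, RGS1 among them. With DESeq2 on all 6 samples there were 1479, none of them IDO1, TAGAP or RGS1.

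**Figure D2:**
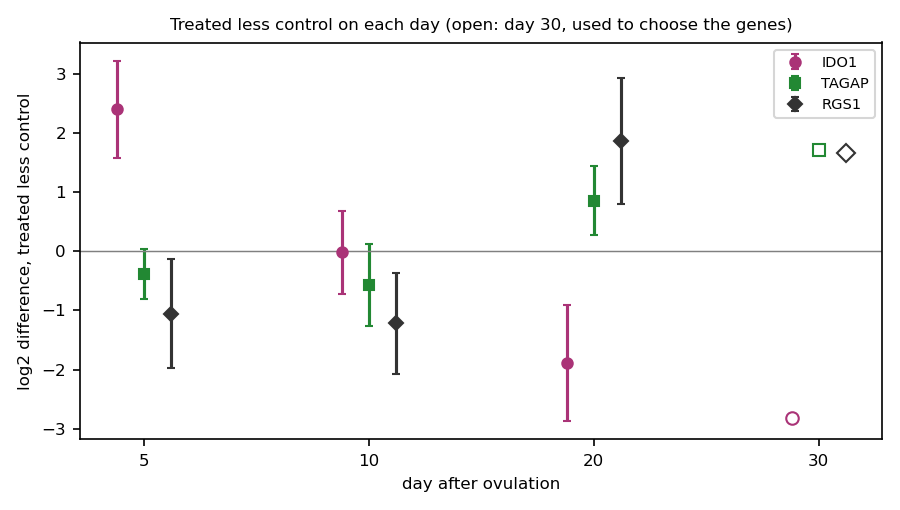
Treated less control difference of IDO1, TAGAP and RGS1 in log2 units against day after ovulation. Filled symbols are edgeR log2 fold changes with bars of 1 SE, and open symbols are the day 30 differences of mean log2 CPM, which were used to choose the genes and have no test. IDO1 is at 2.41 on day 5 and -1.89 on day 20, and RGS1 at -1.05 and 1.87, with bars that rest on 3 or 4 samples a group.

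The size of the treatment effect itself was compared between days in a single fit of the 20 samples of days 5, 10 and 20. The effect on IDO1 was lower on day 20 than on day 5 by a log2 difference of -4.35 (SE 1.33), but the FDR over all genes was 0.610. DESeq2 gave the same difference an FDR of 0.0904, which passed. Against day 10, the effect on IDO1 on day 20 differed by -1.93 (SE 1.40, FDR = 0.668), and by -0.67 without day 20 control replicate 3. For RGS1 the effect on day 20 exceeded that on day 5 by 2.84 (SE 1.58) and that on day 10 by 3.01 (SE 1.69, FDR = 0.541). For TAGAP the corresponding differences were 1.20 (SE 0.87) and 1.37 (SE 0.93). Between days 10 and 5, the effects differed by -2.42 (SE 1.30) for IDO1, -0.17 (SE 0.86) for TAGAP and -0.17 (SE 1.55) for RGS1. edgeR called no gene in any of the 3 comparisons of effects, 0% of 14117 in each. Unadjusted P values under 0.05 were found in 5.4% of genes (762) for day 20 less day 5, in 1567 genes for day 20 less day 10 and in 228 genes for day 10 less day 5. DESeq2 called 63, 489 and 0 genes in these comparisons.

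Among control dogs, RGS1 fell from the developing CL of days 5 and 10 to the CL of day 20. The mean of 68.2 ± 57.4 CPM (SD, n = 7) over days 5 and 10 compared with 12.2 ± 5.24 CPM (SD, n = 3) for day 20, a log2 fold change of -2.53 (SE 0.81, FDR = 0.0512). This passed both thresholds with edgeR and, with an FDR of 0.0129, with DESeq2. Of the 13518 genes tested, 18% were called and 9.83% were called lower on day 20, so 1 of 3 genes called is read against a comparison in which many genes moved. The range of RGS1 on days 5 and 10, from 9.17 to 176 CPM, included the highest day 20 value of 18.2 CPM. The call was lost when any of day 5 control replicates 4 and 5, day 10 control replicates 2, 3 and 4 or day 20 control replicates 1, 2 and 3 was left out. Day 20 controls also serve as the reference of the day 20 treatment comparison, so these results share samples.

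TAGAP was 11.8 ± 5.34 CPM in day 20 controls (SD, n = 3) and 19.5 ± 6.40 CPM in those of days 5 and 10 (SD, n = 7), with a log2 fold change of -0.75 (SE 0.36, FDR = 0.140) that did not pass. IDO1 had 6.60 ± 6.97 CPM and 3.09 ± 1.64 CPM in the same groups, a log2 fold change of 1.08 (SE 0.64, FDR = 0.224). Day 20 control replicate 3 decided this direction, since the value was -0.16 without it. Markers of leukocytes moved in the same comparison. Of 7 general leukocyte genes with an identifier, 4 were called lower on day 20 (CD53, LAPTM5, CD48 and ITGB2) and none higher. Of 6 macrophage and monocyte genes, 5 were called lower (CD68, AIF1, C1QA, TYROBP and FCER1G). Among all genes tested, 9.83% were called lower. Marker genes had an identifier only if the study had called them on these samples, and its comparisons included a similar one of controls. The counts of both lists are thus not independent evidence of a direction. The summed leukocyte markers ranged from 131 to 284 CPM in day 5 and day 10 controls and from 89.5 to 133 CPM in day 20 controls, and their part in the RGS1 difference was not tested.

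Over the 8 groups, the order of means was different for each gene. IDO1 was highest in day 5 treated CL (20.9 ± 19.1 CPM, SD, n = 4) and lowest in day 30 treated CL (1.04 ± 0.954 CPM, SD, n = 3), and each group overlapped its neighbour in the order. TAGAP was highest in day 30 treated and lowest in day 30 control CL, and every neighbour in its order overlapped as well. RGS1 was highest in day 10 controls (97.8 ± 67.7 CPM, SD, n = 3) and lowest in day 30 controls (6.76 ± 1.27 CPM, SD, n = 3). Only the 2 lowest groups of RGS1, the controls of days 20 and 30, were neighbours without overlap. Day 30 treated CL, with 21.9 ± 5.27 CPM, was sixth of 8 groups for RGS1 and near the 22.6 ± 16.2 CPM of day 5 treated CL. Differences between groups accounted for 47.6% of the sum of squares of log2 CPM in IDO1, 37.8% in TAGAP and 30.7% in RGS1. With 8 groups in 26 samples, such unadjusted shares are sizeable even where groups do not differ. None of them is thus read as an effect of day or treatment. These shares include the day 30 difference that the genes were chosen for.

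Levels of TAGAP and RGS1 went together over the samples, and IDO1 went with them within groups but less so across groups. Pearson's r of log2 CPM over the 20 samples of days 5, 10 and 20 was 0.63 for TAGAP with RGS1, 0.32 for TAGAP with IDO1 and 0.21 for RGS1 with IDO1. Over all 26 samples, which include day 30, it was 0.62, 0.03 and 0.09 for the same pairs. Between deviations from the group means in all 26 samples it was 0.59, 0.54 and 0.45 for the same pairs. These are descriptions of genes measured in the same libraries. Day 5 treated replicate 1 had the lowest RGS1 level of all samples and the lowest level of its group in TAGAP and IDO1. Day 10 treated replicate 1 and day 20 treated replicate 2 likewise had the lowest level of their groups in all 3 genes.

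Sums of general leukocyte, macrophage and T cell markers overlapped between the day 30 groups, whereas those of 3 other leukocyte lists did not. Among these 3, the B cell list was near the floor, and the NK and cytotoxic list, at 2.96 CPM or less, was low as well. The 7 general leukocyte genes with an identifier summed to between 76.4 and 103 CPM in controls and between 86.1 and 91.3 CPM in treated samples. The 6 macrophage and monocyte genes summed to between 34.0 and 107 CPM and between 54.7 and 78.5 CPM. CD3G and LCK, the 2 of 12 T cell genes with an identifier, summed to between 2.46 and 3.11 CPM in controls and between 2.38 and 4.09 CPM in treated samples. Defining T cell genes such as CD3E had no identifier here, so T cells were followed by few genes. GZMB and KLRD1, the 2 of 8 NK and cytotoxic cell genes with an identifier, summed to between 1.13 and 1.5 CPM in controls and between 1.57 and 2.96 CPM in treated samples. BLK and FCRLA, 2 of 8 B cell genes, summed to at most 0.311 CPM in controls and at least 0.406 CPM in treated samples. Neither of these genes had enough reads to be tested on day 30, so their separation rests on very few reads and no difference is read from it. KIT, CPA3 and MS4A2, the 3 of 8 neutrophil and mast cell genes with an identifier, were lower in treated samples, with sums of 47.4 to 79.9 CPM against 83.2 to 110 CPM. None of the 3 had an unadjusted P under 0.05 with edgeR, and none was called by edgeR or DESeq2. Neutrophil genes of that list, such as CSF3R and MPO, had no identifier. The part of these cells in the day 30 values was not tested. On day 5 the general leukocyte sum ranged from 202 to 635 CPM in treated and from 166 to 284 CPM in control samples, beside the IDO1 values of that day. Smooth muscle and pericyte genes, 6 of 7 with an identifier, summed to between 801 and 2685 CPM in treated and between 391 and 564 CPM in control samples on day 5. Of these 6, 5 had an unadjusted P under 0.05 in favour of treated CL, against 11.8% of all genes. None was called by edgeR and 4 were called by DESeq2, which called 0.733% of all genes. Genes of both lists had an identifier only if the study had called them on these samples, so this count is not independent evidence of a direction. The part of either list in the day 5 values was not tested.

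Endothelial markers did separate the day 30 groups. PECAM1, CDH5, KDR, VWF and EMCN, the 5 of 10 listed genes with an identifier, summed to between 1585 and 1977 CPM in controls and between 627 and 1181 CPM in treated samples. All 5 had lower means in treated CL; their median log2 fold change was -0.98, against 0.05 over all genes tested, and 4 had an unadjusted P under 0.05, compared with 8.14% of all genes. VWF (von Willebrand factor) had the smallest P of the 5, with a log2 fold change of -1.29 (SE 0.38, FDR = 0.599). None of the 5 was called by edgeR, while DESeq2 called 1 of them and 0.879% of all genes. Their part in the day 30 values of IDO1, TAGAP and RGS1 was not tested. Endothelial genes had an identifier only if the study had called them on these samples, day 30 included. Their count against the share of all genes is thus not independent evidence of a direction. Oocyte genes, which mark ovarian tissue beside the CL, summed to between 6.86 and 23.9 CPM in controls and between 6.42 and 130 CPM in treated samples on day 30. On day 20 they summed to between 4.57 and 9.26 CPM in controls and between 151 and 261 CPM in treated samples. With edgeR, 4 of 6 (ZP3, ZP4, BMP15 and GDF9) were called higher, against 0.102% of all genes. DESeq2 called all 6, against 10.8% of all genes. The same limit of identifiers holds for the count of oocyte genes. Other lists also had day 20 sums without overlap. Among single genes tested on that day, 16.1% had all treated samples above all controls and 14.2% had all of them below. Nothing is thus read from the separation of these sums. Treated samples were higher for T cell genes (5.06 to 6.84 against 1.38 to 3.11 CPM in controls), NK and cytotoxic cell genes (2.80 to 4.48 against 0.781 to 1.71 CPM) and B cell genes (1.02 to 5.59 against 0.158 to 0.305 CPM). The B cell sums of controls were near the floor, and only 1 of the 2 B cell genes had enough reads to be tested. Treated samples were also higher for macrophage and monocyte genes (68.7 to 163 against 47.7 to 61.1 CPM) and fibroblast genes (9820 to 13804 against 2883 to 7262 CPM). The sum of steroidogenic genes was lower in treated samples (276 to 436 against 491 to 536 CPM). Yet 2 of these 3 genes had a positive log2 fold change. Their median was 0.04 and the lowest value was -1.34, so the lower sum does not hold for each gene of the list. The general leukocyte sum overlapped, with 116 to 162 CPM in treated and 89.5 to 133 CPM in control samples. The part of these cells in the day 20 values of IDO1, TAGAP and RGS1 was not tested.

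**Figure D3:**
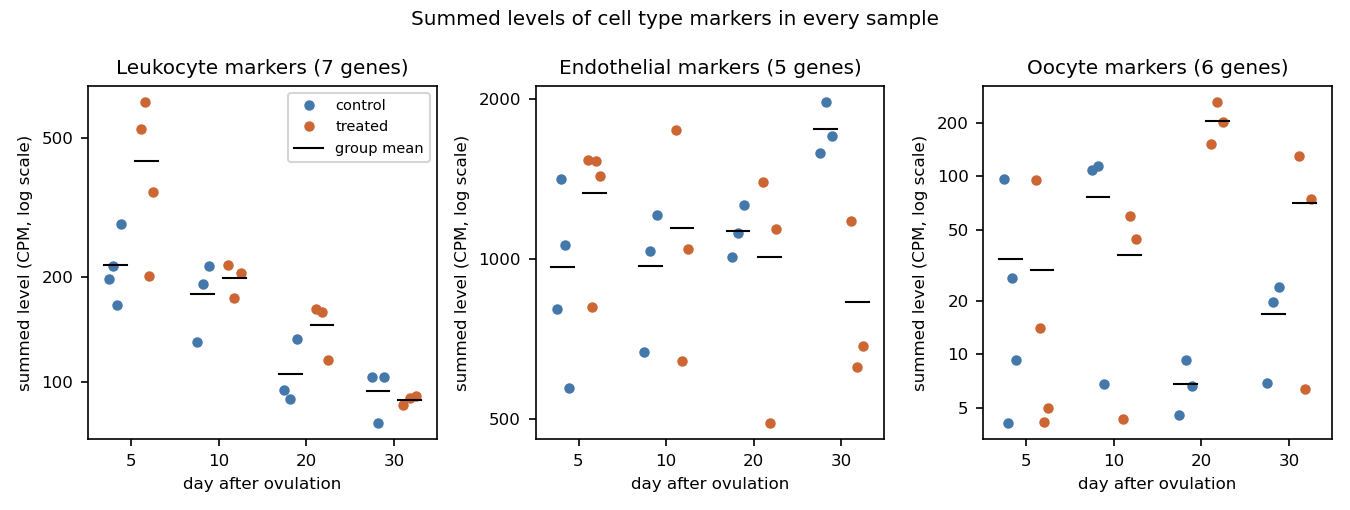
Summed level of leukocyte, endothelial and oocyte markers in each sample (CPM, log scale) against day after ovulation, with control samples in blue, treated samples in orange and a bar at each group mean. On day 30 the endothelial sums of the 3 treated samples, at most 1181 CPM, lie below those of the 3 controls, at least 1585 CPM, while the sums of general leukocyte markers overlap.

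TAGAP was low where endothelial markers were high, also in samples outside day 30. This relation was examined after the day 30 values had been seen, as 1 of 12 between the 3 genes and 4 marker sums over the 20 samples of days 5, 10 and 20. Pearson's r between log2 CPM of TAGAP and of summed endothelial markers was -0.76 (permutation P = 7.0e-05, adjusted over the 12 relations 0.000840) and Spearman's rho was -0.82 (permutation P = 2.0e-05, adjusted 0.000240), two-sided. It was -0.74 without the 2 samples farthest from the median of the marker sum and -0.76 between deviations from the group means. Within single days it was -0.90 for day 5 (n = 8), -0.83 for day 10 (n = 6) and -0.63 for day 20 (n = 6). Day 10 treated replicate 1, with 2.57 CPM of TAGAP, had the highest endothelial sum of the 20 samples at 1752 CPM. Day 20 treated replicate 3, with the highest TAGAP level of 34.6 CPM, had the lowest endothelial sum at 490 CPM.

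RGS1 was related to endothelial markers in the same direction but more loosely, with an r of -0.56 (permutation P = 0.0109, adjusted 0.0480) and a rho of -0.56 (permutation P = 0.0112, adjusted 0.0449). Its r was -0.48 without the 2 farthest samples, -0.55 on day 5, -0.50 on day 10 and -0.70 on day 20. IDO1 had an r of 0.03 (permutation P = 0.905, adjusted 0.971) with the same sum. TAGAP also rose with oocyte markers, with an r of 0.54 (permutation P = 0.0120, adjusted 0.0480) and a rho of 0.61 (permutation P = 0.00491, adjusted 0.0295). That r was 0.47 without the 2 farthest samples, 0.14 on day 5, 0.87 on day 10 and 0.59 on day 20, so within day 5 it hardly held. General leukocyte markers had an r of 0.35 with IDO1 (adjusted 0.371), -0.01 with TAGAP (adjusted 0.971) and -0.12 with RGS1 (adjusted 0.825), each from a permutation test.

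**Figure D4:**
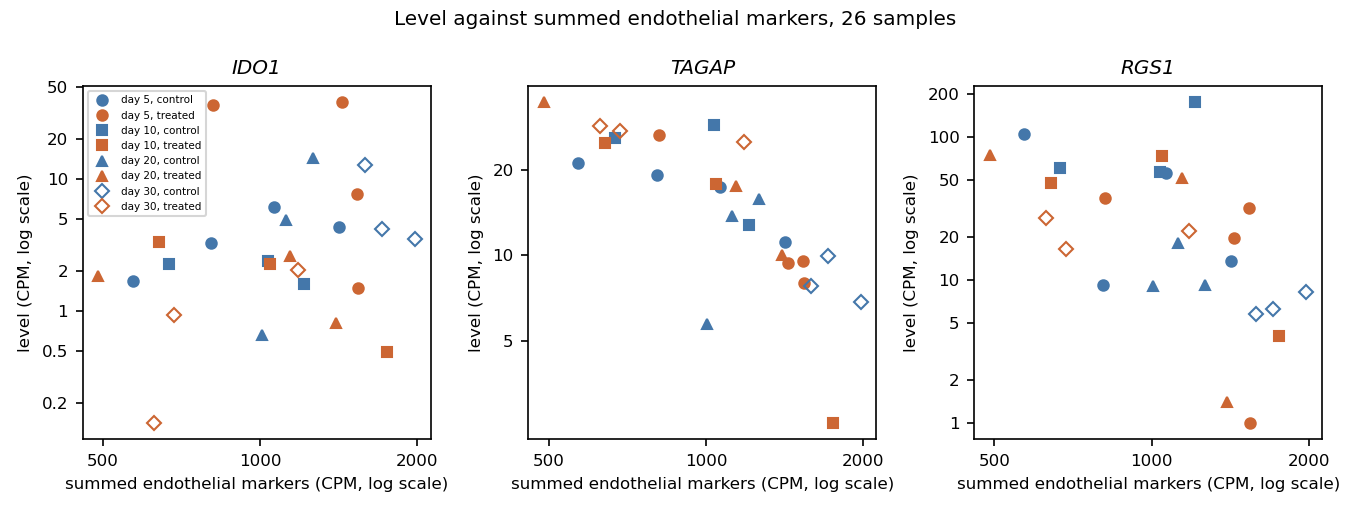
Level of IDO1, TAGAP and RGS1 (CPM, log scale) against the summed level of 5 endothelial markers (CPM, log scale) in 26 samples, with symbols for days, colours for treatment and open symbols for day 30. TAGAP falls from left to right, with an r of -0.76 in the 20 filled samples, and IDO1 shows no such slope, with an r of 0.03.

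Other genes of the kynurenine pathway were followed by IDO2, KMO, HAAO and AADAT, the 4 of 16 listed genes with an identifier. None was called in a treatment comparison. IDO2, the paralog of IDO1 that lies next to it in the RefSeq gene order of the canine assembly UU_Cfam_GSD_1.0 with 1 unnamed locus between, was at 6.45 ± 2.49 CPM in treated CL of day 30 and at 14.5 ± 3.74 CPM in its controls (SD, n = 3 each). All treated samples were lower, with a log2 fold change of -1.05 (SE 0.37, FDR = 0.599 with edgeR), a test that missed the threshold. On day 20 IDO2 was at 8.31 ± 4.04 CPM in treated CL and at 8.62 ± 1.78 CPM in controls. In controls, KMO, which turns kynurenine into hydroxykynurenine, was called higher on day 20 than on days 5 and 10 (log2 fold change 2.09, FDR = 0.0554), and HAAO, which acts further down that branch, was called lower (-2.32, FDR = 0.0306). Of all genes tested there, 8.19% were called higher and 9.83% lower. Kynurenine genes, too, had an identifier only if the study had called them on these samples. On day 5, HAAO was at 7.64 ± 9.24 CPM in treated CL and at 1.38 ± 0.70 CPM in controls (log2 fold change 2.46, FDR = 0.412 with edgeR), near the value of IDO1 on that day and likewise not called.

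Interferon gamma response genes, of which 6 of 21 had an identifier, gave no calls in the treatment comparisons with edgeR. IRF1, a transcription factor that induces IDO1, was at 187 ± 112 CPM in treated CL of day 20 and at 18.2 ± 5.22 CPM in its controls (SD, n = 3 each). Its log2 fold change of 3.4 (SE 0.64) had an FDR of 0.102 with edgeR, just outside the threshold, and of 9.1e-06 with DESeq2, while IDO1 had a negative value in the same samples. On day 30 IRF1 was at 45.4 ± 44.2 CPM in treated CL and at 22.6 ± 8.61 CPM in controls, and the 6 genes had a median log2 fold change of 0.14 against 0.05 over all genes. In control CL, PSMB8 and PSMB9, subunits of the immunoproteasome, were called lower on day 20 than on days 5 and 10, and CD274, the checkpoint ligand PD-L1, was called higher. Of all genes tested there, 9.83% were called lower and 8.19% higher. Interferon genes had an identifier only if the study had called them on these samples, so these calls are not independent evidence of a direction.

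The R4 family, to which RGS1 belongs, holds small regulators of G protein signaling. RGS2, RGS4, RGS5, RGS16 and RGS18 were the 5 of 9 other listed members with an identifier. None was called in any comparison with edgeR. DESeq2 called 2 of them in treated against control CL of day 20, where it called 10.8% of all genes. It called 1 in day 20 against earlier controls, where it called 25% of all genes. On day 30 their median log2 fold change was -0.07 against 0.05 over all genes. RGS2, on the side of RGS13 from RGS1 in RefSeq's canine gene order, was at 135 ± 3.2 CPM in treated CL and at 154 ± 72.1 CPM in controls (SD, n = 3 each). RGS18, on the other side of RGS1 after RGS21, had 7.22 ± 1.53 CPM and 3.32 ± 2.40 CPM (log2 fold change 1.24, FDR = 0.613 with edgeR) and is named after its values were seen. On day 20, RGS5, a regulator found in pericytes, was at 62.7 ± 45.7 CPM in treated CL and at 258 ± 26.8 CPM in controls. Its log2 fold change was -2.0 (SE 0.56, FDR = 0.183 with edgeR and 0.00987 with DESeq2), opposite in sign to the 1.87 of RGS1.

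Chemokine and S1P receptors and their ligands, the signals that RGS1 dampens, had 7 of 15 genes with an identifier and no call in a treatment comparison with edgeR, against 1 with DESeq2 on day 20. On that day DESeq2 called 10.8% of all genes. CCL2, the monocyte chemoattractant, was at 179 ± 222 CPM in treated CL of day 30 and at 41.5 ± 11.8 CPM in its controls (log2 fold change 2.20, FDR = 0.599 with edgeR), with overlapping groups. CXCR4, the receptor of CXCL12, had 73.7 ± 38.6 and 117 ± 47.5 CPM. In controls, CXCR4 was called higher on day 20 than on days 5 and 10 (log2 fold change 1.63, FDR = 0.00672), and 4 of the 7, among them CCR2, CCR7 and CCL2, were called lower, against 9.83% of all genes. Of 5 of 15 T cell activation genes with an identifier, all 5 had a positive log2 fold change on day 30, with a median of 0.80, and none was called. Their summed level was 20.6, 67.5 and 17.9 CPM in the treated samples and 17.0 to 19.3 CPM in the controls, so only treated replicate 4 was far above. On day 20 their median log2 fold change was 2.18, against 0.11 over all genes, with no call by edgeR and 2 by DESeq2, and the sums were 17.4 to 82.3 CPM in treated and 14.2 to 23.1 CPM in control samples. Identifiers came only from the study's lists of genes called on these samples, so these counts are not independent evidence of a direction.

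Genes with the most similar pattern were sought among 4351 genes with a symbol, by Pearson's r of log2 CPM over all 26 samples. For IDO1 they were CCND2 (0.74), PCDHGB1 (0.72), BUB1 (0.70), PRC1 (0.70) and NCAPG (0.69), of which CCND2 is a cyclin and BUB1, PRC1 and NCAPG act in mitosis. For TAGAP they were NACA (0.83), RPS24 (0.80), RPL5 (0.79), EIF3H (0.79) and ELAVL2 (0.79), of which RPS24 and RPL5 are ribosomal proteins and EIF3H is a subunit of a translation initiation factor. For RGS1 they were CD69 (0.83), BIRC3 (0.83), TBX20 (0.81), NUF2 (0.81) and CLDND1 (0.80), with CD69 an early activation marker of lymphocytes and BIRC3 an inhibitor of apoptosis. With deviations from the group means, which leave out differences between days and treatments, ARRDC3 (0.94) and DNAJB4 (0.92) were closest to RGS1, followed by TBX20 (0.91), LEMD3 (0.91) and HACE1 (0.90). STC1 (0.84), WWC1 (0.83), SKP2 (0.82), CDH11 (0.82) and ZPLD1 (0.82) were closest to TAGAP in the same way, and FAM81A (0.79), ERCC6L (0.78), ORC6 (0.78), KCTD12 (0.75) and BUB1 (0.73) to IDO1. All points of a correlation come from the same libraries and share their depth and composition.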

How the data were processed

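Poly-A RNA of canine CL was sequenced as single-end reads without strand information. The authors used STAR and CanFam3.1 for alignment and featureCounts for read counts per Ensembl gene; versions are not given in the sources used here. The deposited values are raw read counts for 19856 genes in each of 26 samples. The authors removed 4 outlier samples, which were not used here.

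R 4.3.3 with edgeR 4.0.16 was used for TMM scaling and for the quasi-likelihood test, fitted to the groups compared only, with genes of a mean of at least 10 reads in a group, Benjamini-Hochberg adjustment over all genes tested and thresholds of 0.01 for P and 0.1 for FDR. DESeq2 1.42.0 was the alternative. SE was the log2 fold change divided by the root of the F statistic. P-values of edgeR and DESeq2 set group differences against the spread between dogs. Permutations for the correlations ran freely over the 20 samples, so their P-values also take in differences between groups. Tests were tried on simulated data.

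The 3 genes and the gene lists were chosen with earlier results of these data known. From each list, called genes or otherwise the 3 with the highest mean CPM were named, and all of the kynurenine list could be; CDH5, EMCN and RGS18 were named after their values were seen. A few items of the lists are not reported here. Symbols came from the study's supplemental lists of called genes, which named 4355 of the identifiers. Correlations used log2 of CPM, with 1 added to marker sums, and 100000 permutations.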

Additional observations from a re-analysis of the deposited data

Results flagged for a closer look

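TAGAP in day 5 treated CL stood apart in 1 sample: replicate 2 had 26.5 CPM, far from the other 3, which were between 7.98 and 9.57 CPM. Of 6 groups of 4 samples examined in this way, chance sets such a sample apart in about 1 of 20 groups.

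RGS1 had treated samples all on one side of the control mean on 3 of the 4 days. On days 5 and 10 every treated sample was below it, and on day 30 every treated sample was above it. The control means of days 5 and 10 were raised by samples of 105 and 176 CPM. Treated samples of 37.7 CPM on day 5 and 73.7 CPM on day 10 were above the control medians of 34.9 and 61.0 CPM. With 3 or 4 treated samples a group such a pattern is not rare, and its share over all genes was not counted. The difference between day 30 and the other days was not tested, because day 30 chose the gene.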

How the results depend on the processing

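Of 381 alternative values for 24 results on the 3 genes, 351 kept both direction and side of the thresholds or, for day 30, moved by less than 1 SD. For IDO1 on day 10 the sign turned, with 0.026 under RLE factors, 0.026 under DESeq2 and 0.010 with 20 samples in 1 fit, and values without each sample in turn ran from -0.57 to 0.44. IDO1 in day 20 against days 5 and 10 controls ran from -0.16 to 1.62 without each sample in turn, and the effect on IDO1 on day 20 less day 5 passed with DESeq2 (-4.35). RGS1 in day 20 against days 5 and 10 controls no longer passed with 20 samples in 1 fit (-2.45) or without most samples (-2.90 to -2.05). RGS1 on day 20 ran from 1.19 to 2.41 without each sample and passed without treated replicate 2. The difference of effects between days 10 and 5 ran from -0.97 to 0.57 for RGS1 and from -0.76 to 0.40 for TAGAP. The cause of these changes was not tested.

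Same-numbered samples of control and treated groups deviated from their group means with correlations from -0.092 to 0.51 on day 5 and of -0.27 on day 10. Correlations were near -0.39 on day 20 and from -0.18 to 0.031 on day 30. On day 5 the mean was 0.15 for same-numbered and -0.041 for other pairs. With at most 3 such pairs on a day, these values cannot settle whether the numbers pair samples. With the replicate number as a block, RGS1 was -0.27 on day 20, -1.34 in day 20 against days 5 and 10 controls (no longer called) and 2.0 on day 30. On day 5 the block gave 1.05 for IDO1, -1.10 for TAGAP and -2.09 for RGS1, none of them called. Called genes then numbered 4 on day 5 and 71 in the control comparison. On day 10 the groups share 1 number, so no block could be fitted. DESeq2 called 100 genes on day 5 against 0, 1479 on day 20 against 14, and 63 and 489 for the effect of day 20 less days 5 and 10 against 0. On day 20, RLE factors called 95 genes, no filter 109 and 20 samples in 1 fit 1096; in the control comparison 20 samples in 1 fit called 454 against 2436, and leaving out day 20 control replicate 1 or 2 left 480 or 831. Leaving out each sample of day 20 in turn gave 0 to 1016 called genes there.

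Between marker sums and genes, r changed sign with deviations from group means for IDO1 with leukocytes (-0.051), macrophages (-0.44) and endothelium (-0.22), TAGAP with leukocytes (0.090) and RGS1 with oocytes (-0.18), and over all 26 samples for RGS1 with leukocytes (0.031). Of the 5 genes most like each gene, between 1 and 3 remained with Spearman's rho or without day 30. Scaling by library total only, added after seeing the data, moved none of the 24 group means of the 3 genes by 1 SD. Depth limits IDO1 most, with as few as 2 reads in a sample.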
